A study of Callithrix jacchus with 4 samples.

Results

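Respiratory complex I is followed here through its nuclear-encoded subunit genes in frontal cortex of the common marmoset (Callithrix jacchus), a small New World monkey. Members were all genes of the deposited count table whose symbol begins with NDUFA, NDUFAB, NDUFB, NDUFC, NDUFS or NDUFV and ends in a number, which gave 38 of 35108 genes. The genes named NDUFAF, which encode assembly factors, were left out of the members. NDUFA4 met the rule by its symbol and is counted among the subunit genes, although its protein belongs to complex IV. RNA sequencing was done on 4 libraries of adult frontal cortex, 2 with the genotype label WT (wild type) and 2 with the label APP transgene. The series describes the transgenes as mutant forms of the amyloid precursor protein gene under the human EF1α promoter, a promoter active in most cell types. The transgenic animals are labelled female, and no sex is labelled for the wild type. The comparison asks how expression in the transgenic cortex differed from that in the wild type.

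Complex I (NADH:ubiquinone oxidoreductase) is the entry point of electrons from NADH into the respiratory chain of mitochondria. Its peripheral arm holds the N module, where NADH is oxidised at a flavin, and the Q module, where a chain of iron-sulfur clusters passes the electrons to ubiquinone. Its membrane arm pumps protons across the inner membrane and thereby feeds ATP synthesis, on which neurons depend heavily. The catalytic core is conserved from bacteria, the core of the membrane arm is encoded in mitochondrial DNA, and the many accessory subunits surround and stabilise the core. The mitochondrially encoded subunits were not analysed here.

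Values of a group's pair of libraries are given in the order of libraries 1 and 2, and the word pair does not mean that libraries were matched across genotypes. Total counts ranged from 12657323 to 18932180 per library. No label states whether each library of a genotype is from its own animal, so p-values measure the spread between these libraries, which may be technical at least in part. For KDM5D, a Y-linked gene, wild-type libraries 1 and 2 held 2 and 243 counts and both transgenic libraries held 0. The wild-type libraries thus differed from each other in it more than libraries of 1 animal should, and sex cannot be fully told apart from genotype. APP was at 1822 and 2182 CPM (counts divided by the scaled library size and put on the usual CPM scale) in the wild-type pair against 2143 and 2748 CPM in the transgenic pair, and the groups overlapped (log2 fold change 0.29 ± 0.22 SE, n = 2 per group, edgeR adjusted p = 0.80). Of 56 markers of neurons and other cortical cell types, all 56 were detected and 0 were at 0 counts in any library. Transgenic library 2 stood apart by low values of most astrocyte and oligodendrocyte markers. The exceptions were GFAP and MAG, at 635 and 67.4 CPM there. Wild-type libraries 1 and 2 held 695 and 517 CPM of GFAP and 90.1 and 62.7 CPM of MAG.

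All 38 subunit genes passed the filter on low counts, and the lowest count of any member in any library was 161. No member passed edgeR's quasi-likelihood test, adjusted over all 16385 genes tested at a threshold of 0.05, in which 0 genes (0%) passed. Members' adjusted p lay between 0.79 and 0.99. At an unadjusted p under 0.05 there were 3 members, NDUFA2 and NDUFA11 with lower values and NDUFV3 with higher values in transgenic cortex, against 5.62% of all genes tested. DESeq2 called 0 members (0.293% of all genes) and limma-voom called 0 members (0% of all genes). On this test no single subunit gene can be said to have changed.

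Most members had slightly lower fitted values in transgenic cortex. The fitted log2 fold change, transgenic over wild type, was below 0 for 33 of the 38 members, against 50.4% of all genes tested. In 22 of 38 members both transgenic values were under both wild-type values, against 19.4% of all genes, and in 3 of 38 both lay above, against 19.5% of all genes. The median log2 fold change of the members was -0.18, beside a median of -0.0022 over all genes tested. These counts are a description, because the members share their libraries and are not independent replicates. Summed over members, the level was 2998 and 2756 CPM in wild-type libraries 1 and 2 and 2569 and 2715 CPM in transgenic libraries 1 and 2. The sum was thus highest in wild-type library 1, and wild-type library 2 and transgenic library 2 were close to each other. Without wild-type library 1 the median log2 fold change was -0.062, with 28 of 38 members below 0, and without wild-type library 2 it was -0.27. Fits without a wild-type library, here and below, also change the match in Y-linked KDM5D. Wild-type library 1, with 2 counts, was close to the 0 counts of the transgenic libraries, and wild-type library 2, with 243, was not. Sex and library were thus not separated in these fits. In bulk tissue, fewer cells of a type and less RNA per cell cannot be told apart.

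**Figure D1:**
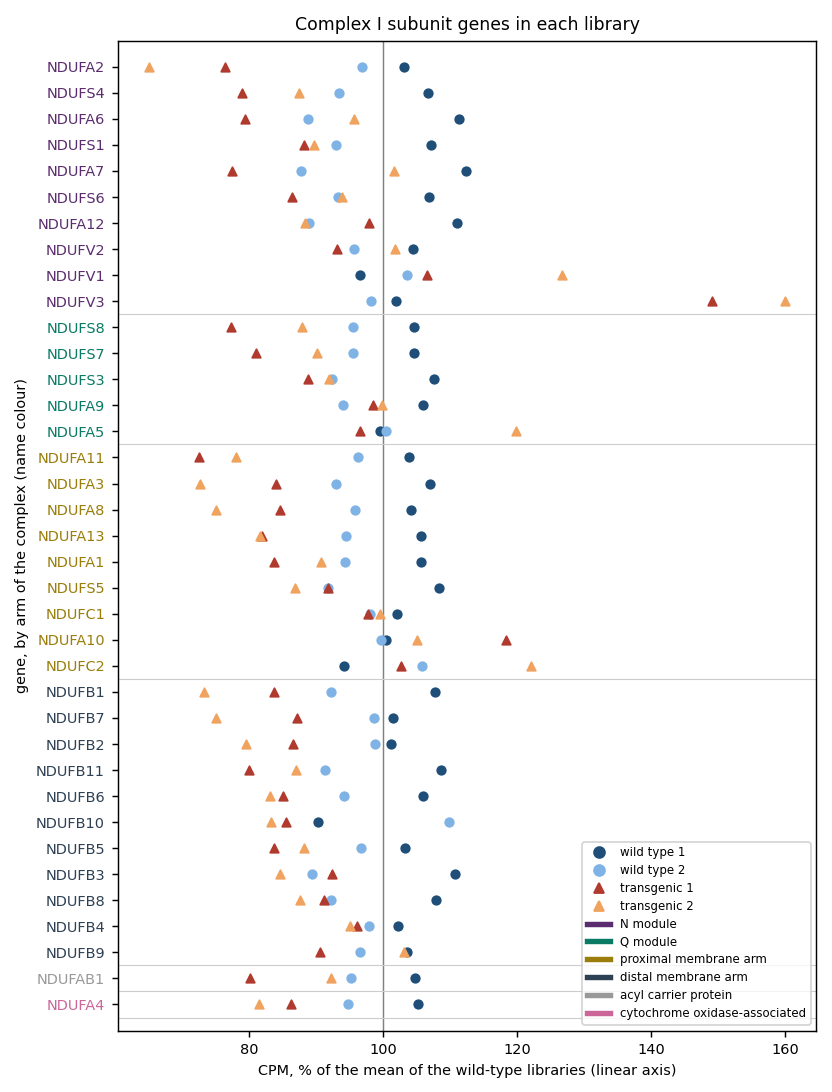
Level of each of 37 subunit genes in each of the 4 libraries, as a percentage of the mean CPM of the 2 wild-type libraries, with genes grouped by arm of the complex and circles for wild-type and triangles for transgenic libraries. Most triangles sit to the left of both circles, NDUFV3 sits far to the right, and wild-type library 1 is the rightmost point for 31 of them.

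In the N module, 8 of 10 genes had a fitted value below 0 and 3 of 10 had both transgenic values under both wild-type values (median log2 fold change -0.15). Over all genes tested these shares were 50.4% and 19.4%. The 3 catalytic genes of this module differed in the direction of their fitted values. NDUFV1, which encodes the subunit that binds NADH and the flavin, was at 84.3 and 90.3 CPM in the wild-type pair against 93.0 and 111 CPM in the transgenic pair. Both transgenic libraries were above both wild-type libraries, library 2 by more than library 1 (log2 fold change 0.22 ± 0.14 SE, n = 2 per group, edgeR adjusted p = 0.79). Leaving out transgenic library 2 gave a log2 fold change of 0.087, and leaving out transgenic library 1 gave 0.34. NDUFV2, which carries an iron-sulfur cluster beside it, was at 84.3 and 77.1 CPM in the wild-type pair against 75.0 and 82.1 CPM in the transgenic pair. The groups overlapped (log2 fold change -0.04 ± 0.13 SE, from -0.11 to 0.024 with each library left out). NDUFS1, the largest core subunit and the carrier of further iron-sulfur clusters, was at 153 and 132 CPM in the wild-type pair against 126 and 128 CPM in the transgenic pair. Both transgenic libraries lay just below wild-type library 2 (log2 fold change -0.17 ± 0.13 SE, -0.071 without wild-type library 1 and -0.27 without wild-type library 2).

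The largest differences of any member in each direction were both in accessory genes of the N module. NDUFV3, an accessory subunit bound to the flavin-carrying end of the arm, was at 12.5 and 11.99 CPM in the wild-type pair against 18.2 and 19.5 CPM in the transgenic pair, or 161, 164, 248 and 353 counts in the same order. The groups were far apart relative to the difference within each (fold 1.54, log2 0.63 ± 0.19 SE, 95% interval 0.15 to 1.10, n = 2 per group). Its p was 0.019 unadjusted and 0.79 adjusted in edgeR, and its adjusted p was 0.86 in DESeq2. The fitted value stayed between 0.57 and 0.68 when each library was left out in turn. It was also the member with the lowest mean CPM, a scale that does not correct for gene length. NDUFA2, a small accessory subunit with a thioredoxin-like fold, was at 24.2 and 22.7 CPM in the wild-type pair against 17.9 and 15.3 CPM in the transgenic pair. Both transgenic libraries were lower than both wild-type libraries (log2 fold change -0.50 ± 0.19 SE, 95% interval -0.97 to -0.03). In edgeR's quasi-likelihood test its unadjusted p was 0.040 and its adjusted p 0.79.

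The other 5 accessory genes of the N module had smaller differences. NDUFS4, a subunit whose loss causes Leigh syndrome, averaged 33.4 ± 3.1 CPM (± SD, n = 2) in the wild-type pair and 27.8 ± 2.0 CPM in the transgenic pair, and the groups did not overlap. NDUFA6, a subunit of the LYR family, was at 36.7 ± 5.8 and 32.1 ± 4.2 CPM, and NDUFA7 was at 25.6 ± 4.5 and 22.9 ± 4.4 CPM. NDUFS6, which binds zinc, was at 62.2 ± 6.0 and 56.1 ± 3.3 CPM, and NDUFA12 was at 66.7 ± 10.4 and 62.1 ± 4.5 CPM. In these last 4 genes the groups overlapped.

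The Q module held 6 genes, of which 5 had a fitted value below 0 and 3 had both transgenic values under both wild-type values (median log2 fold change -0.12). The shares over all genes tested were 50.4% and 19.4%. Core genes of the Q module encode the subunits around the ubiquinone-binding site and the last iron-sulfur clusters. NDUFS8 was at 47.3 and 43.1 CPM in the wild-type pair against 34.9 and 39.7 CPM in the transgenic pair (log2 fold change -0.28 ± 0.15 SE). NDUFS7, which carries the terminal cluster, was at 47.0 and 42.9 CPM in the wild-type pair against 36.4 and 40.5 CPM in the transgenic pair (log2 fold change -0.22 ± 0.15 SE). In both genes transgenic library 1 was the lowest and wild-type library 1 the highest. NDUFS3 was at 94.9 and 81.5 CPM in the wild-type pair against 78.3 and 81.0 CPM in the transgenic pair, so that transgenic library 2 and wild-type library 2 were nearly equal. Its log2 fold change was -0.15 ± 0.14 SE, -0.039 without wild-type library 1 and -0.25 without wild-type library 2.

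Of the accessory genes of the Q module, NDUFA5 had the highest mean CPM of any member. It was at 235 and 237 CPM in the wild-type pair against 228 and 283 CPM in the transgenic pair, so the transgenic libraries lay on either side of the wild type (log2 fold change 0.11 ± 0.15 SE, -0.05 without transgenic library 2 and 0.26 without transgenic library 1). NDUFA9, which binds a nucleotide cofactor, averaged 58.7 ± 4.9 CPM (± SD, n = 2) in the wild-type pair and 58.2 ± 0.53 CPM in the transgenic pair. Its 95% interval ran from -0.36 to 0.33 on the log2 scale. Over the 7 core genes of both modules the median log2 fold change was -0.15, with 6 of 7 below 0 and 4 of 7 with both transgenic libraries below the wild type. Over the other 31 members, which are the accessory genes and NDUFA4, it was -0.20. Of these, 27 of 31 were below 0 and 18 of 31 below the wild type in both libraries. Among all genes tested 50.4% were below 0 and 19.4% were below the wild type in both libraries.

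In the proximal part of the membrane arm, next to the Q module, 7 of 9 genes had a fitted value below 0 and 5 of 9 had both transgenic values under both wild-type values (median log2 fold change -0.20). All genes tested had shares of 50.4% and 19.4%. NDUFA11, an accessory membrane subunit at the contact with complex III in supercomplexes, was at 47.2 and 43.7 CPM in the wild-type pair against 32.9 and 35.5 CPM in the transgenic pair. The gap between the groups was wider than the difference within either (log2 fold change -0.41 ± 0.15 SE, 95% interval -0.78 to -0.04). In the same test its unadjusted p was 0.036 and its adjusted p 0.79. NDUFA3, a small membrane subunit, was at 53.9 and 46.8 CPM in the wild-type pair against 42.3 and 36.5 CPM in the transgenic pair. NDUFA8, which faces the intermembrane space, was at 57.2 and 52.6 CPM in the wild-type pair against 46.4 and 41.1 CPM in the transgenic pair. In these genes transgenic library 2 was the lowest, and the log2 fold changes were -0.35 ± 0.16 and -0.33 ± 0.15 SE.

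NDUFA13, also known as GRIM19 for its part in interferon-induced cell death, was at 140.4 and 125 CPM in the wild-type pair against 109 and 108 CPM in the transgenic pair. The transgenic libraries were nearly equal and below both wild-type libraries (log2 fold change -0.29 ± 0.12 SE). NDUFA1, which is encoded on the X chromosome and needed for the arm to assemble, was at 76.8 and 68.5 CPM in the wild-type pair against 60.8 and 65.9 CPM in the transgenic pair (log2 fold change -0.20 ± 0.14 SE, and -0.12 without wild-type library 1). Both transgenic values were under both wild-type values, library 2 by less than library 1. NDUFC2 was at 90.0 and 101 CPM in the wild-type pair against 98.0 and 117 CPM in the transgenic pair, with overlap (log2 fold change 0.17 ± 0.15 SE, 0.033 without transgenic library 2 and 0.29 without transgenic library 1). NDUFA10, a subunit on the matrix side of the arm, was at 15.4 and 15.3 CPM in the wild-type pair against 18.2 and 16.1 CPM in the transgenic pair (log2 fold change 0.16 ± 0.19 SE, 0.07 without transgenic library 1 and 0.24 without transgenic library 2). Both transgenic libraries were above the wild type for NDUFA10, library 2 only slightly. NDUFS5 averaged 52.1 ± 6.1 CPM (± SD, n = 2) in the wild-type pair and 46.5 ± 1.8 CPM in the transgenic pair, and NDUFC1 was at 76.4 ± 2.1 and 75.3 ± 1.0 CPM, both with overlap.

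In the distal part of the membrane arm all 11 genes had a fitted value below 0, and 9 of 11 had both transgenic values under both wild-type values (median log2 fold change -0.25). The fitted values ran from -0.35 to -0.05. Of all genes tested 50.4% had a fitted value below 0 and 19.4% had both transgenic values under both wild-type values. NDUFB1, a small single-span membrane subunit, was at 48.4 and 41.5 CPM in the wild-type pair against 37.6 and 32.9 CPM in the transgenic pair (log2 fold change -0.35 ± 0.17 SE). NDUFB2 was at 47.0 and 45.9 CPM in the wild-type pair against 40.1 and 36.9 CPM in the transgenic pair (log2 fold change -0.27 ± 0.14 SE). In both genes the order was wild-type library 1, wild-type library 2, transgenic library 1 and transgenic library 2. NDUFB11, the other X-linked member, was at 62.3 and 52.4 CPM in the wild-type pair against 45.8 and 49.9 CPM in the transgenic pair, where transgenic library 2 came close to wild-type library 2 (log2 fold change -0.26 ± 0.16 SE, and -0.14 without wild-type library 1).

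Among the 8 other distal genes, NDUFB7, which lies on the intermembrane side, averaged 37.3 ± 0.74 CPM (± SD, n = 2) in the wild-type pair and 30.2 ± 3.2 CPM in the transgenic pair. NDUFB6 was at 62.0 ± 5.2 and 52.1 ± 0.85 CPM, NDUFB5 at 129 ± 6.0 and 111 ± 4.1 CPM, and NDUFB10 at 42.4 ± 5.9 and 35.8 ± 0.69 CPM. NDUFB10 was the 1 distal gene with a higher value in wild-type library 2 (46.6 CPM) than in wild-type library 1 (38.3 CPM). NDUFB8, whose protein is widely used as an antibody marker of assembled complex I, was at 188 ± 20.7 and 168 ± 4.8 CPM, and NDUFB4 at 75.4 ± 2.4 and 72.0 ± 0.61 CPM. In these 6 genes the groups did not overlap, but in NDUFB8 and NDUFB4 transgenic library 1 lay just under wild-type library 2. The groups overlapped for NDUFB3, at 37.3 ± 5.6 and 33.0 ± 2.0 CPM, and for NDUFB9, a LYR family subunit, at 146 ± 7.3 and 141 ± 13.0 CPM.

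The last members have roles that reach beyond a single place in the complex. NDUFAB1, the mitochondrial acyl carrier protein, sits in both arms and also serves fatty acid synthesis and iron-sulfur cluster assembly in the matrix. It was at 46.3 and 42.1 CPM in the wild-type pair against 35.4 and 40.8 CPM in the transgenic pair (log2 fold change -0.21 ± 0.16 SE, -0.12 without transgenic library 1 and -0.32 without transgenic library 2). NDUFA4 carries a complex I name, but its protein is a subunit of complex IV, cytochrome c oxidase, and a current marmoset annotation lists it as COXFA4. It was at 162 and 146 CPM in the wild-type pair against 133 and 125 CPM in the transgenic pair, with the groups apart (log2 fold change -0.25 ± 0.13 SE). Its paralogue NDUFA4L2, which is no member and is known to be induced by hypoxia, had 21 and 13 counts in wild type and 13 and 9 in transgenic cortex.

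**Figure D2:**
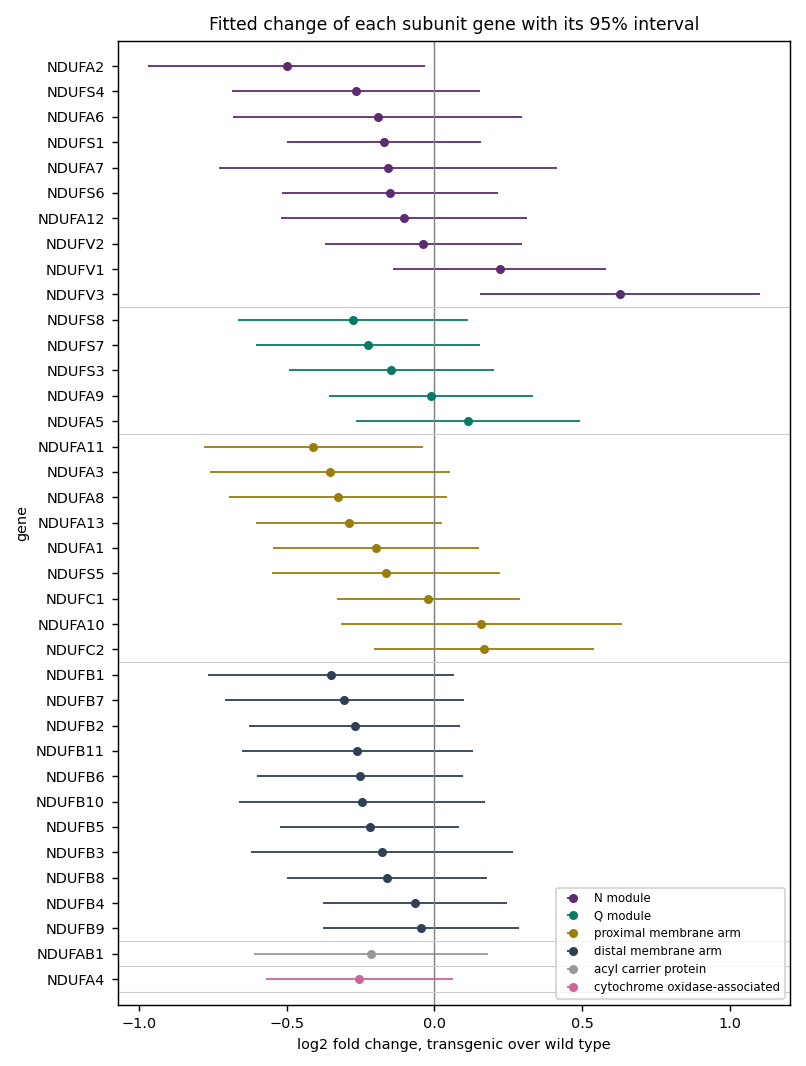
Fitted log2 fold change of each of 37 subunit genes, transgenic over wild type, with its 95% interval from edgeR's quasi-likelihood fit, coloured by arm. Of the 37 intervals 34 span 0, all 11 genes of the distal membrane arm lie left of 0, and NDUFV3 lies farthest right at 0.63.

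The precision of single genes was as follows. The standard errors of the members ran from 0.12 to 0.23, with a median of 0.15, beside a median of 0.23 over all genes tested. The 95% intervals of 37 of 38 members lay within a 2-fold change in either direction, NDUFV3 being the exception, and those of 18 lay within 1.5-fold.

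The libraries of one group also differed from each other in these genes. Wild-type library 1 was above wild-type library 2 for 34 of 38 members, with a median log2 difference of 0.13, and it was the highest of the 4 libraries for 32 members. That difference within the wild type stands beside the median fitted shift of -0.18 between the groups. The lowest library was transgenic library 1 for 18 members and transgenic library 2 for 15. Transgenic library 2 was above transgenic library 1 for 8 of 10 genes of the N module and 6 of 6 of the Q module, including all 7 core genes, and for 3 of 11 genes of the distal membrane arm. Whether the arms differed from each other was not tested.

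Leaving out 1 library at a time moved the arms by different amounts. Without wild-type library 1 the median log2 fold change was -0.0025 for the N module, -0.04 for the Q module, -0.12 for the proximal and -0.17 for the distal membrane arm. Without wild-type library 2 these medians were -0.26, -0.20, -0.28 and -0.28. Without transgenic library 1 they were -0.08, -0.06, -0.21 and -0.24, and without transgenic library 2 they were -0.20, -0.20, -0.25 and -0.21. Without transgenic library 1, edgeR called 1710 of 17234 genes (9.92%), none of them a member, and the smallest adjusted p of a member was 0.078. That fit has 1 transgenic library, which is assumed to vary as the wild-type libraries do.

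**Figure D3:**
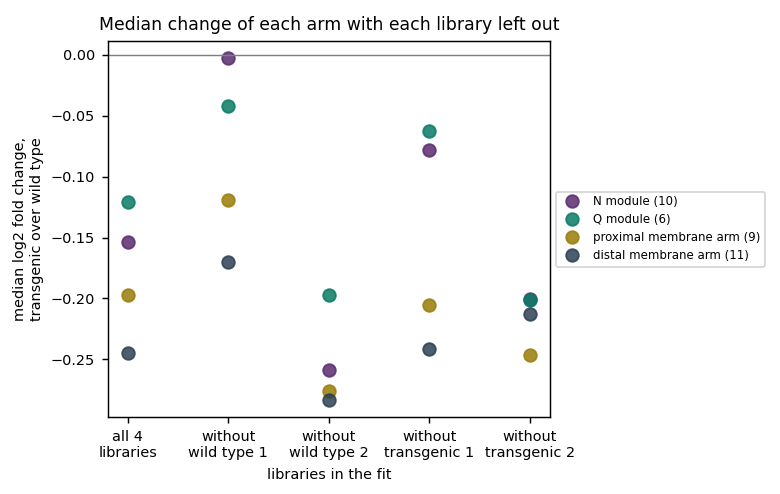
Median log2 fold change of the genes of each arm, transgenic over wild type, in the fit of all 4 libraries and with each library left out in turn. The distal membrane arm stays between -0.28 and -0.17, while the N module comes to -0.0025 without wild-type library 1.

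Assembly factors build complex I from intermediates and are not part of the finished enzyme. Of 22 such genes listed, 21 were matched and tested, and 0 had an edgeR adjusted p at or below the threshold. Of the 21, 16 had a fitted value below 0 and 11 had both transgenic values under both wild-type values (0 had both above), with a median log2 fold change of -0.14. Over all genes tested the shares were 50.4% below 0, 19.4% with both values under and 19.5% with both above. NDUFAF4, which acts with NDUFAF3 on early intermediates of the Q module, was at 46.0 and 51.6 CPM in the wild-type pair against 37.0 and 34.7 CPM in the transgenic pair (log2 fold change -0.45 ± 0.15 SE, edgeR adjusted p = 0.79). FOXRED1, a flavoprotein needed for assembly, was at 28.5 and 35.1 CPM in the wild-type pair against 23.6 and 20.8 CPM in the transgenic pair (log2 fold change -0.52 ± 0.19 SE, edgeR adjusted p = 0.79). For both genes the groups did not overlap. On the higher side NDUFAF3 averaged 27.3 ± 1.7 CPM (± SD, n = 2) in the wild-type pair and 31.1 ± 5.6 CPM in the transgenic pair, and DMAC2 at 44.4 ± 0.28 and 49.6 ± 10.1 CPM, both with overlap.

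Other genes around complex I included lists with and without such a majority of lower values. None of their genes had an edgeR adjusted p at or below 0.05. Of 39 listed genes of complexes II to V, 23 were matched by symbol, of which 22 had a fitted value below 0 and 17 had both transgenic libraries below the wild type (median log2 fold change -0.20). The shares over all genes tested were 50.4% and 19.4%. Most matched genes encode subunits of complex V (ATP synthase) or complex II, and COX8A was the only one matched from complex IV, so complexes III and IV were sparsely covered. Iron-sulfur cluster assembly supplies the cofactors of the peripheral arm, and 10 of its 14 genes were below 0 (median -0.14). There BOLA3 was at 10.7 and 10.7 CPM in the wild-type pair against 7.1 and 4.7 CPM in the transgenic pair (log2 fold change -0.86 ± 0.30 SE). Of 12 transcriptional regulators of respiration 6 were below 0 (median 0.00016), among them ESRRA, the estrogen-related receptor α gene, averaging 35.6 ± 2.0 CPM in the wild-type pair and 23.0 ± 6.2 CPM in the transgenic pair (mean ± SD, n = 2).

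Genes of mitochondrial mass, which encode outer membrane channels, import subunits and matrix proteins, had 4 of 13 tested genes below 0 and a median log2 fold change of 0.03. The transgenic libraries lay on either side of the wild type, library 1 with a median deviation of -0.12 and library 2 with one of 0.15, and library 2 exceeded library 1 for 12 of 13 genes. TOMM70, an import receptor, was at 144 and 150.0 CPM in the wild-type pair against 153 and 194 CPM in the transgenic pair, and PHB, a prohibitin gene, averaged 63.4 ± 5.8 and 55.2 ± 2.0 CPM (± SD, n = 2). Of the genes of transhydrogenase and of NADH shuttles, the latter carrying reducing equivalents into mitochondria, 6 of 11 were below 0 (median -0.0026). GPD1, the cytosolic enzyme of the glycerol phosphate shuttle, was at 14.7 and 15.1 CPM in the wild-type pair against 22.6 and 25.3 CPM in the transgenic pair (log2 fold change 0.68 ± 0.18 SE, edgeR adjusted p = 0.79). The difference between these lists and the subunit genes was not tested.

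**Figure D4:**
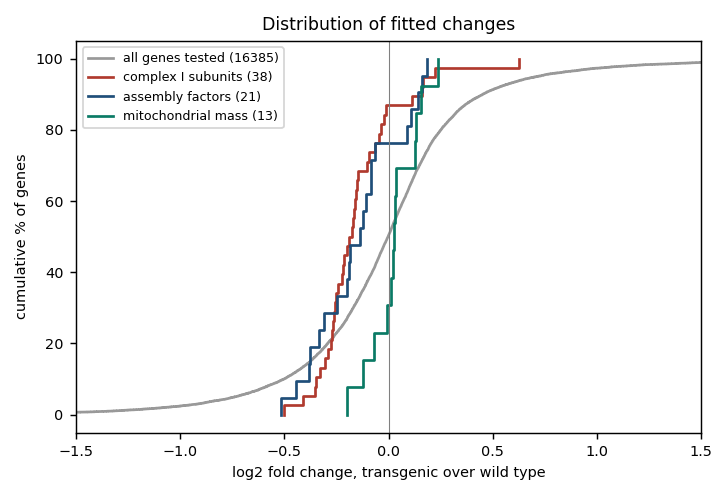
Cumulative percentage of genes against the fitted log2 fold change, transgenic over wild type, for all 16385 genes tested, the 38 complex I subunit genes, 21 assembly factors and 13 genes of mitochondrial mass; the axis is limited to the central range. The subunit genes cross 50% near -0.18 and the genes of mitochondrial mass near 0.03.

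Markers of several cell types also differed between these libraries. Over 10 astrocyte markers the summed level was 8270 and 6910 CPM in wild type, 7448 CPM in transgenic library 1 and 2610 CPM in transgenic library 2, and over 10 oligodendrocyte markers it was 3331 and 2613 CPM, then 3277 and 1205 CPM. Fitted values were below 0 for 9 of 10 genes in each list. Beside these, transgenic libraries 1 and 2 had median log2 deviations of -0.21 and -0.16 from the wild type over the subunit genes, and of -0.21 and -0.23 over the distal membrane arm. Over 11 microglia markers, all 11 below 0, the sum was 219 and 259 CPM in the wild-type pair against 139 and 118 CPM in the transgenic pair. Over 8 endothelial markers, 7 below 0, it was 290 and 227 CPM, then 196 and 135 CPM. Both transgenic values were under both wild-type values for 3 of 10 astrocyte and 0 of 10 oligodendrocyte markers. The same held for 6 of 11 microglia and 5 of 8 endothelial markers. Among all genes tested 50.4% were below 0 and 19.4% had both transgenic values under both wild-type values. None of the markers in these 4 lists had an edgeR adjusted p at or below 0.05.

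Of 7 markers of parvalbumin interneurons, fast-spiking cells rich in mitochondria, 5 were below 0, and these 5 also had both transgenic values under both wild-type values. Among all genes tested the shares were 50.4% and 19.4%. Over all 7 markers the summed level was 1079 and 915 CPM in the wild-type pair against 711 and 637 CPM in the transgenic pair. The list includes KCNS1 and SCN4B, whose lower values in transgenic cortex were known when it was written. KCNS1, a potassium channel gene, was at 255 and 232 CPM in the wild-type pair against 142 and 149 CPM in the transgenic pair. TAC1 and KCNC2 were the markers with a fitted value above 0, at 0.22 and 0.02 on the log2 scale. The general interneuron genes GAD1 and GAD2, which encode the enzymes of GABA synthesis, had log2 fold changes of 0.34 ± 0.13 and 0.35 ± 0.12 SE, with both transgenic values above both wild-type values (edgeR adjusted p = 0.79). TAC1, KCNC2, GAD1 and GAD2 were chosen after their values were seen. Over 10 general neuron markers, GAD1 and GAD2 among them, 4 were below 0. Their sums were 13362 and 13759 CPM in the wild-type pair against 12605 and 14750.4 CPM in the transgenic pair. Of these markers 4 had both transgenic values under both wild-type values and 3 had both above. Among all genes tested those shares were 19.4% and 19.5%. NEFM and RBFOX3, with the smallest p in this list, had log2 fold changes of -0.91 ± 0.23 and -0.48 ± 0.13 SE (edgeR adjusted p = 0.79). The part of these cell type markers in the values of the subunit genes was not tested.

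**Figure D5:**
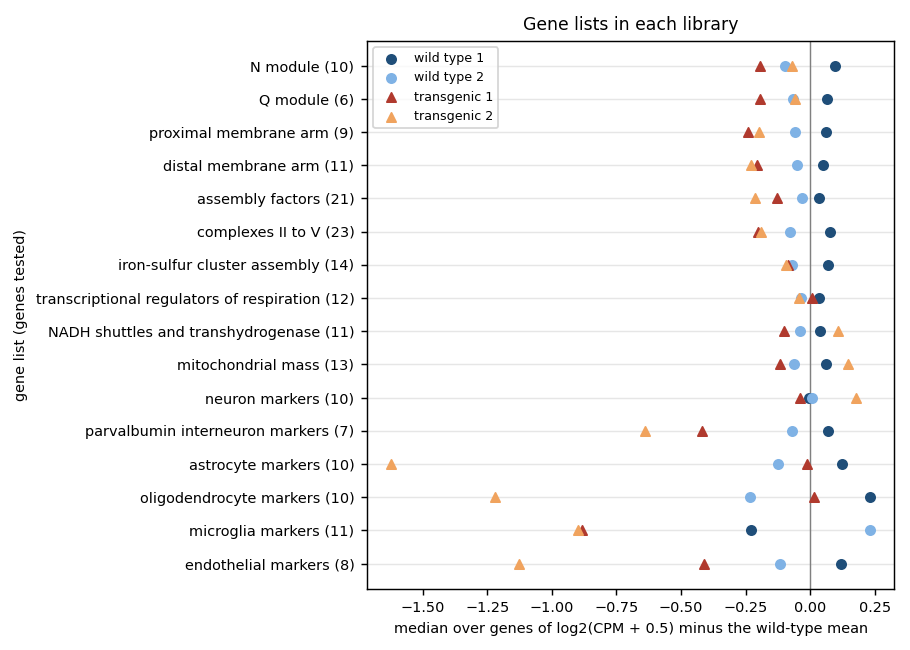
Median over the genes of each list of log2(CPM + 0.5) minus the mean of the 2 wild-type libraries, for each of the 4 libraries. The arms of complex I stay between -0.24 and 0.10, whereas astrocyte and oligodendrocyte markers reach -1.62 and -1.22 in transgenic library 2.

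Reads of overlapping genes limit a few members, since no source used here says whether the libraries keep strand. In the RefSeq annotation of the marmoset assembly calJac240_pri, which may differ from the one used for counting, 37 members were found by symbol and NDUFA4 as an older symbol. There 3 members overlap another protein-coding gene: NDUFA7 overlaps HNRNPM, NDUFA9 overlaps AKAP3 and NDUFS6 overlaps MRPL36. HNRNPM was at 149 and 177 CPM in the wild-type pair against 157 and 130 CPM in the transgenic pair, above the 19.8 to 28.8 CPM of NDUFA7. MRPL36 was at 50.5 and 43.7 CPM in the wild-type pair against 33.3 and 28.9 CPM in the transgenic pair. Copies of a gene elsewhere in the genome could also split reads with a member, which these counts cannot show.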

How the data were processed

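The deposited table gives raw counts as whole numbers, 1 row per gene symbol and 1 column per library. Per the submitters' processing notes, featureCounts 1.5.2, kallisto 0.46.2 and STAR 2.5.3a were used, with no roles given. The annotation and genome build are not given in the sources here. Libraries were made from total RNA with KAPA Hyper reagents, per the labels' protocols. Of 35108 genes, 8054 had no count. In R 4.3.3, edgeR 4.0.16 kept 16385 genes (filterByExpr), scaled by TMM and ran the quasi-likelihood F-test with genotype as the only term (2 residual degrees of freedom, biological coefficient of variation 24.5%). The Benjamini-Hochberg adjustment covered every gene kept. An exact permutation test of 2 against 2 libraries cannot go below p = 0.33 (two-sided), so none was run. CPM use TMM-scaled library sizes, and 3 counts correspond to 0.17 to 0.23 CPM.

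The members, gene lists and rules were chosen with earlier results of these data known. Library values are given for the 7 nuclear core genes, the 8 other lower and 3 other higher members with the smallest p, the extremes of mean CPM, and NDUFA1, NDUFB11, NDUFA4 and NDUFAB1. From the assembly factors the 2 genes with the smallest p per direction are named, and from other lists at most 2. The neuron, parvalbumin interneuron, astrocyte and oligodendrocyte lists are exceptions, where genes were named outside this rule. DESeq2 1.42.0, limma-voom (limma 3.58.1), other scalings and filters, a replicate block and leaving out each library were tried. The fit was tested on simulated data. The values of 1 member that met the naming rule are not reported here, although it enters the counts and medians.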

Additional observations from a re-analysis of the deposited data

How the results depend on the processing

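The number of members past the threshold was 0 in every alternative run: DESeq2, limma-voom, RLE, upper-quartile and total-count scaling, no low-count filter, a minimum mean count of 50, and each library left out. Over all genes, edgeR called 0 genes, DESeq2 48, edgeR without the low-count filter 5, edgeR without transgenic library 2 3 and without transgenic library 1 1710. With each library left out in turn, the median log2 fold change of the members ranged from -0.27 to -0.062 (lowest without wild-type library 2, highest without wild-type library 1), and that of the assembly factors from -0.23 to -0.095. Members with the transgenic values wholly under the wild type ranged from 23 without wild-type library 1 (31.5% of all genes) to 33 without wild-type library 2 (33.3% of all genes). Those wholly above it ranged from 3 without transgenic library 2 (33.8% of all genes) to 5 without transgenic library 1 (39.9% of all genes). With a library left out, non-overlap of the groups is more frequent by construction, since fewer libraries are compared, and the group with 1 library is assumed to vary like the other. Of 273 values of the 21 members named with library values, 270 kept their sign. The others all came from leaving out a library, where NDUFV2 ranged from -0.11 to 0.024 and NDUFA5 from -0.054 to 0.26. Library totals without scaling moved the median of all genes to -0.05. The cause of these differences was not tested.

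The labels give the same replicate numbers to both groups without saying that they pair the libraries. With the replicate block 0 members passed and the median log2 fold change of the members was -0.18, and it changed no other call. Over all genes tested, deviations of same-numbered libraries from their group means had a correlation of -0.13 (a description over genes). With crossed replicate numbers as the block, an alternative chosen after seeing the data, 0 members and 0 of all genes passed.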
